A study of Rattus norvegicus with 9 samples.

Results

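The 10 genes described here are barrier, endothelial and vascular growth factor genes of the brain's vessels: Slc2a1, Abcb1a, Abcg2, Cldn5, Pecam1, Vwf, Vegfa, Flt1, Kdr and Tek. They were taken by gene symbol from a table of 37991 genes, and all 10 passed the filter on low counts that left 18047 genes for testing. RNA sequencing measured them in the medial prefrontal cortex (mPFC) of Wistar Kyoto rats, a strain studied for its depression-like behaviour, in 3 groups of 3 libraries collected on day 15. Control rats were untreated. Rats of the K4 group received K4, a compound known here only by its code, through an intravenous cannula for 7 days. Those of the Ketamine group received ketamine, an NMDA receptor antagonist, under the skin for 7 days, and each drug was stopped for 7 days before collection. No dose, vehicle, sex or age is labelled, and Control had neither cannula nor injection, so drug, route and handling cannot be told apart. They do not say that each library is a separate animal, so p-values measure only the spread between these libraries.

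Endothelial cells of brain capillaries form the blood-brain barrier. Tight junctions seal the gaps between them, transporters in their membranes admit nutrients, and ATP-driven pumps return many drugs to the blood. Vascular endothelial growth factor A acts on these cells through receptor tyrosine kinases and controls vessel growth and permeability, while the angiopoietin receptor Tek, also called Tie2, supports vessel stability.

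Library totals ranged from 40863756 to 42731004 counts in Control, 28495399 to 32735785 in K4 and 27122207 to 33837450 in Ketamine. Mitochondrially encoded protein genes took 15.1% ± 3.68 of counts in Control (SD, n = 3), with 19.0% in Control replicate 2, against 10.8% ± 0.518 in K4 and 11.4% ± 0.652 in Ketamine. Control replicate 2 also held the highest Control value for 9 of the 10 genes, all but Kdr. Counts leaned on transcript length differently by group: the slope of log2 CPM per doubling of length, relative to each gene's mean, was 0.0434 to 0.0704 in Control, −0.0203 to 0.0019 in K4 and −0.0663 to −0.0178 in Ketamine. CPM here is the count scaled to the TMM-normalised library size. Cortical excitatory neuron markers were present in every library, with Slc17a7 at 606 TPM or more and Tbr1 at 30.3 TPM or more. The 22 other endothelial identity genes used for comparison were all detected, and their summed level was 197 to 212 TPM in Control, 192 to 221 TPM in K4 and 163 to 186 TPM in Ketamine.

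Of these genes, 5 of 10 were called lower in Ketamine than in Control, where 9.75% of all genes tested were. In K4, 2 of 10 were called lower, where 3.8% of genes were. On counts, all 10 had negative log2 fold changes in Ketamine and 8 of 10 in K4. Called in Ketamine were the efflux pumps Abcb1a and Abcg2, the VEGF receptor Flt1, the angiopoietin receptor Tek and the clotting protein gene Vwf. They fell by 0.58 to 0.998 on the log2 scale. Called in K4 were Abcb1a and Flt1. No gene of the 10 was called higher in either comparison, and the VEGF ligand gene, claudin-5, Pecam1, Kdr and the glucose transporter Slc2a1 were called in neither. With the replicate number as a block, Abcg2 and Slc2a1 were also called lower in K4, and Slc2a1 and Cldn5 in Ketamine. The labels do not say what equal numbers share. Those of Ketamine and Control showed no joint deviation from their group means (r of −0.0954 to 0.0232). Calls were made with edgeR's quasi-likelihood test at an adjusted p below 0.05 (Benjamini-Hochberg over all 18047 genes). Both comparisons use the same 3 Control libraries, so their values are given side by side.

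**Figure D1:**
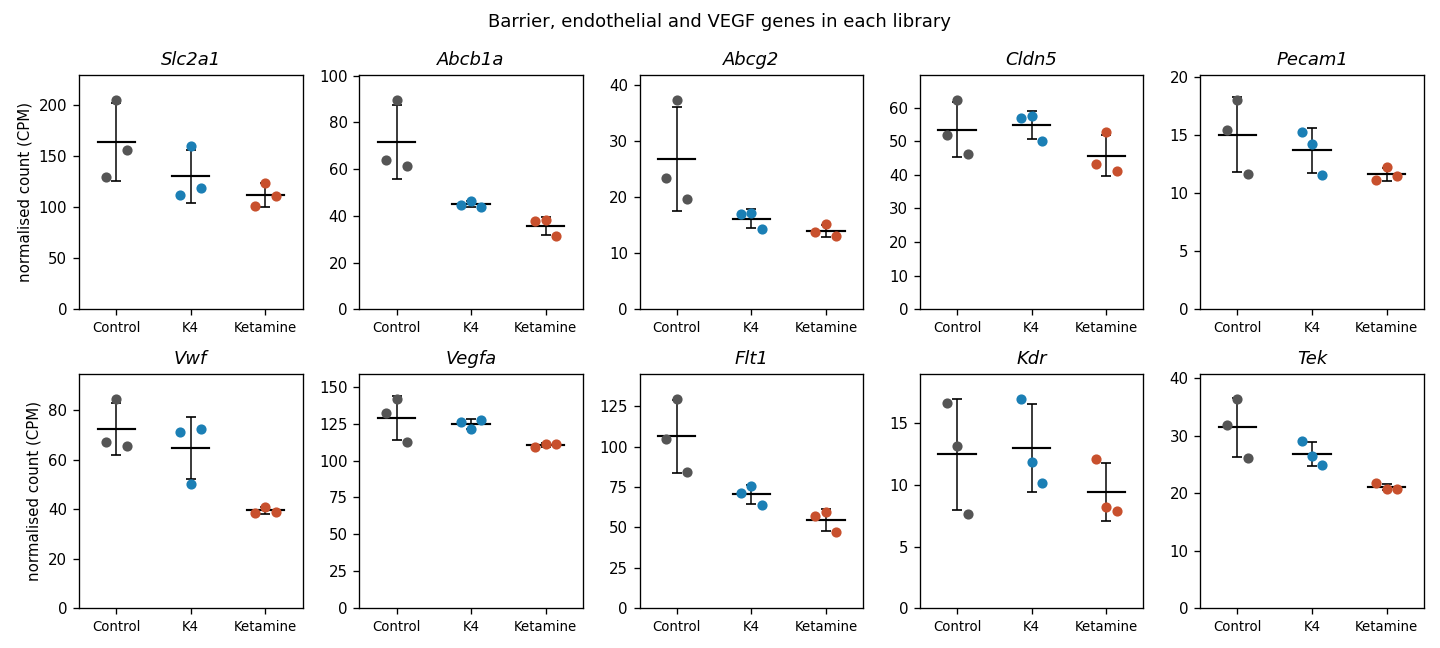
Normalised count (CPM, linear axis from 0) of each gene in each of the 9 libraries, by group, with replicates 1 to 3 from left to right, the group mean (bar) and SD (whiskers). The Ketamine libraries lie below all 3 Control libraries for 7 genes, and the K4 libraries do so for Abcb1a, Abcg2 and Flt1.

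Per transcript length, Slc2a1 was the most abundant of the 10 in Control at 117 TPM ± 18.4 (SD, n = 3) and Kdr the least at 3.90 TPM ± 1.36. TPM is scaled for transcript length and allows levels to be set between genes. Slc2a1 stood above Vegfa (71.1 TPM ± 2.67) and Cldn5 (68.9 TPM ± 2.07) in every Control library, and the ranges of Vegfa and Cldn5 overlapped. Flt1 followed at 29.8 TPM ± 2.98. Abcb1a (23.3 TPM ± 2.49) and Abcg2 (22.2 TPM ± 4.82) overlapped below it, then came Vwf at 15.1 TPM ± 0.615. Pecam1 (12.8 TPM ± 1.43) and Tek (12.7 TPM ± 0.747) overlapped, above Kdr.

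The upstream sequences of Abcb1a, Abcg2 and Flt1, the genes with no overlap between groups in both comparisons with Control, are printed with that of Kdr, the other main VEGF receptor, which was called in neither. RefSeq windows on GRCr8 matched 7 of the 10 genes. Each line is the 250 bases before an annotated transcript start, 5′ to 3′ on the gene's strand. Those of Abcb1a and Abcg2 end just before a transcript start that lies inside the gene's annotated span. Capitals mark matches on either strand to GGGCGG (the Sp1 box), TGACGTCA (the cAMP response element), CCGGAA or CAGGAA (ETS factor cores), TATAAA (the TATA box) and ACGTG (the hypoxia response core, also part of the E-box CACGTG).
Abcb1a (chr4:26397649-26397898, minus strand): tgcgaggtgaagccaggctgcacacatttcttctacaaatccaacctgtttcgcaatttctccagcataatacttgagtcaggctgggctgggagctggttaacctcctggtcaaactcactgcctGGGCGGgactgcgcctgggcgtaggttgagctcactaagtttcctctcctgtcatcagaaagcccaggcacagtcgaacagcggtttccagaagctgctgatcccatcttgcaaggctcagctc
Abcg2 (chr4:89075224-89075473, plus strand): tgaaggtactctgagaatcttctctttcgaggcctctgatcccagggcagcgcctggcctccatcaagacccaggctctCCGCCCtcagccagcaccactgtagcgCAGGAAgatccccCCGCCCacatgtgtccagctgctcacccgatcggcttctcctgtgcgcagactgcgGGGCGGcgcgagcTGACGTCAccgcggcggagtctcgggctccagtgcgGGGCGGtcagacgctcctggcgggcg
Flt1 (chr12:12333180-12333429, plus strand): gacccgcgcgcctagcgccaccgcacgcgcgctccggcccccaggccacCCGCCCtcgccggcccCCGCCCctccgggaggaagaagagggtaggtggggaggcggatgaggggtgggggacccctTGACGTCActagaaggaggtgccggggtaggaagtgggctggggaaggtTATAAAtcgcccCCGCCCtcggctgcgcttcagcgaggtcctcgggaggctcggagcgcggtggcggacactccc
Kdr (chr14:32571813-32572062, plus strand): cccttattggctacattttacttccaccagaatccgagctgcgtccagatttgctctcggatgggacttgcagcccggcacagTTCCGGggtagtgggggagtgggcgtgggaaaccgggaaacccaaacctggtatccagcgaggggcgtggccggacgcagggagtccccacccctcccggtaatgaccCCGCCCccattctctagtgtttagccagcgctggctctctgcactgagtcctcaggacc
The full TGACGTCA was found in the Abcg2 window, 62 bases before the start, and in the Flt1 window, 124 bases before it, and in no other window of the 7 genes. It was added to the search after the sequences had been read, and 1.59% of all 33469 windows hold it. GGGCGG was found in all 4 printed windows, once in Abcb1a, 4 times in Abcg2, 3 times in Flt1 and once in Kdr, and 30.5% of all windows hold it. CAGGAA was found in Abcg2 and CCGGAA in Kdr, against 24.7% and 12.6% of all windows. TATAAA was found in Flt1, against 12.9% of windows. ACGTG was found in none of the 4 printed windows but once in that of Slc2a1, against 16.6% of windows. A match describes letters only and shows no binding.

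Abcb1a encodes P-glycoprotein, the main efflux pump of brain capillaries. Its normalised count was 63.7, 89.6 and 61.3 CPM in Control replicates 1 to 3, 44.6, 46.4 and 43.8 CPM in K4, and 37.9, 38.1 and 31.4 CPM in Ketamine. Every K4 library lay below every Control library, and every Ketamine library lay below every K4 library. In Ketamine it was close to 0.50 of the Control level (log2 fold change −0.998, SE 0.132, edgeR adjusted p = 0.00113). In K4 the log2 fold change was −0.67 (SE 0.131, adjusted p = 0.0180). That K4 call was lost without K4 replicate 1 (adjusted p = 0.0633) or K4 replicate 3 (adjusted p = 0.0690), where the log2 fold change was −0.67 and −0.65. Rats carry a second, related P-glycoprotein gene, Abcb1b, so some reads may have been split between them. Abcb1b was counted at 3.18 CPM ± 0.973 in Control, 2.07 CPM ± 0.325 in K4 and 1.91 CPM ± 0.478 in Ketamine (SD, n = 3), with edgeR adjusted p = 0.161 and 0.0633 against Control.

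Abcg2 encodes the breast cancer resistance protein, the second major drug pump of the barrier. Its counts were 23.5, 37.4 and 19.7 CPM in Control, 17.1, 17.3 and 14.3 CPM in K4, and 13.9, 15.2 and 13.1 CPM in Ketamine. All 6 treated libraries lay below all 3 Control libraries, and K4 and Ketamine overlapped. The log2 fold change was −0.94 in Ketamine (SE 0.202, edgeR adjusted p = 0.0118). In K4 it was −0.73 (SE 0.200, adjusted p = 0.0596), just above the threshold. Control replicate 2 was the highest library; without it the log2 fold change was −0.62 in Ketamine (adjusted p = 0.00177) and −0.41 in K4 (adjusted p = 0.0322). The K4 value was also called without Control replicate 3 (−0.89, adjusted p = 0.00967) and in 4 of 11 other settings tried. Those were the replicate block (−0.69, adjusted p = 0.0137), DESeq2 (adjusted p = 0.00302) and limma on filtered TPM with either added constant.

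Slc2a1 encodes GLUT1, the glucose transporter of barrier endothelium and, in another form, of astrocytes. It was counted at 130.0, 205 and 156 CPM in Control, 112, 160.0 and 119 CPM in K4, and 101, 124 and 111 CPM in Ketamine. Replicate 2 was the highest library in each group, and only Ketamine stood clear of Control. Its log2 fold change was −0.33 in K4 (SE 0.183, edgeR adjusted p = 0.320) and −0.55 in Ketamine (SE 0.183, adjusted p = 0.0733). The 95% interval in Ketamine ran from −0.97 to −0.13 on the log2 scale. Each K4 library lay below the Control library of the same number, and with the replicate block Slc2a1 was called in K4 at −0.32 (adjusted p = 0.0244). The block also called it in Ketamine at −0.53 (adjusted p = 0.000907), as did edgeR with only the 2 groups compared (adjusted p = 0.039). Over 10830 genes, however, equal numbers of Ketamine and Control did not deviate together. Without the block, the K4 value was −0.14 without Control replicate 2 and −0.50 without K4 replicate 2, neither called. The Ketamine value was −0.35 without Control replicate 2, and it was called without Control replicate 1 (adjusted p = 0.0266) or K4 replicate 2 (adjusted p = 0.0273).

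Cldn5 encodes claudin-5, the dominant tight junction protein of brain endothelium. Its counts were 51.7, 62.3 and 46.3 CPM in Control, 57.0, 57.5 and 49.9 CPM in K4, and 43.4, 52.7 and 41.1 CPM in Ketamine. All groups overlapped. The log2 fold change was 0.04 in K4 (95% interval −0.21 to 0.29, edgeR adjusted p = 0.878) and −0.23 in Ketamine (95% interval −0.48 to 0.03, adjusted p = 0.208). With the replicate block, edgeR called Cldn5 lower in Ketamine (−0.22, adjusted p = 0.0441), although equal numbers of Ketamine and Control did not deviate together.

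Pecam1 encodes CD31, an adhesion protein at contacts between endothelial cells that is also made by platelets and leukocytes. It was counted at 15.4, 17.99 and 11.6 CPM in Control, 15.3, 14.2 and 11.5 CPM in K4, and 11.1, 12.2 and 11.5 CPM in Ketamine. The groups overlapped, and the log2 fold change was −0.13 in K4 (edgeR adjusted p = 0.631) and −0.37 in Ketamine (adjusted p = 0.104). The Ketamine value was −0.22 without Control replicate 2 and was called without Control replicate 3 (−0.51, adjusted p = 0.0149).

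Vwf encodes von Willebrand factor, a clotting protein stored in endothelial granules. Its counts were 67.1, 84.6 and 65.3 CPM in Control, 71.3, 50.1 and 72.6 CPM in K4, and 38.6, 41.0 and 38.9 CPM in Ketamine. The 3 Ketamine libraries were close together and below all 6 others, while K4 replicates 1 and 3 lay inside the Control range and K4 replicate 2 below it. In Ketamine the log2 fold change was −0.87 (SE 0.138, edgeR adjusted p = 0.00275), and in K4 it was −0.16 (SE 0.136, adjusted p = 0.518).

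Vegfa, the ligand of Flt1 and Kdr, is made largely by astrocytes, neurons and other cells around the vessels. It was counted at 132, 142 and 113 CPM in Control, 126, 121 and 128 CPM in K4, and 109, 112 and 111 CPM in Ketamine. Ketamine lay just below the lowest Control library, and K4 lay inside the Control range. The log2 fold change was −0.05 in K4 (95% interval −0.21 to 0.11, edgeR adjusted p = 0.755) and −0.22 in Ketamine (95% interval −0.38 to −0.06, adjusted p = 0.0551). The Ketamine value was called without Control replicate 3 (−0.29, adjusted p = 0.00519). Of 11 other settings tried, 1 called it, DESeq2 (adjusted p = 0.0373).

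Flt1 encodes VEGF receptor 1, which binds VEGF-A tightly, signals weakly and has a secreted form that traps the ligand. Gene-level counts cannot separate the forms. The counts were 105, 129.8 and 84.3 CPM in Control, 71.6, 75.9 and 64.1 CPM in K4, and 57.1, 59.5 and 47.0 CPM in Ketamine. As with Abcb1a, the 3 groups did not overlap and Ketamine was the lowest. The log2 fold change was −0.96 in Ketamine (SE 0.145, edgeR adjusted p = 0.00239) and −0.59 in K4 (SE 0.144, adjusted p = 0.0397). Of the 9 fits that left out 1 library each, 3 kept the K4 call. It was lost without Control replicate 1 (adjusted p = 0.107), any 1 of the K4 libraries (0.0690 to 0.124), Ketamine replicate 1 (0.0586) or Ketamine replicate 2 (0.0510).

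Kdr encodes VEGF receptor 2, the main signalling receptor for VEGF-A. It was counted at 16.6, 13.2 and 7.64 CPM in Control, 17.0, 11.9 and 10.2 CPM in K4, and 12.1, 8.23 and 7.90 CPM in Ketamine. Replicate 1 was the highest library of each group and the groups overlapped. The log2 fold change was 0.06 in K4 (95% interval −0.60 to 0.73, edgeR adjusted p = 0.926) and −0.41 in Ketamine (95% interval −1.08 to 0.27, adjusted p = 0.398). These intervals are the widest of the 10 genes, and the one in Ketamine includes a fall as large as that of Flt1. The ratio of Flt1 to Kdr on the TPM scale was 5.72, 8.84 and 9.87 for the Control libraries. It was 3.79, 5.73 and 5.63 for K4 and 4.30, 6.45 and 5.33 for Ketamine. Control replicate 1 lay within the range of both treated groups, and with 3 libraries a group the ratio was not tested.

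Tek encodes Tie2, the angiopoietin receptor. Its counts were 31.8, 36.4 and 26.1 CPM in Control, 29.1, 26.4 and 24.96 CPM in K4, and 21.7, 20.7 and 20.8 CPM in Ketamine. Ketamine lay below all 6 other libraries. In Ketamine the log2 fold change was −0.58 (SE 0.107, edgeR adjusted p = 0.00372), and in K4 it was −0.23 (SE 0.106, adjusted p = 0.212). Without Control replicate 3 the K4 value was called (−0.33, adjusted p = 0.0437).

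**Figure D2:**
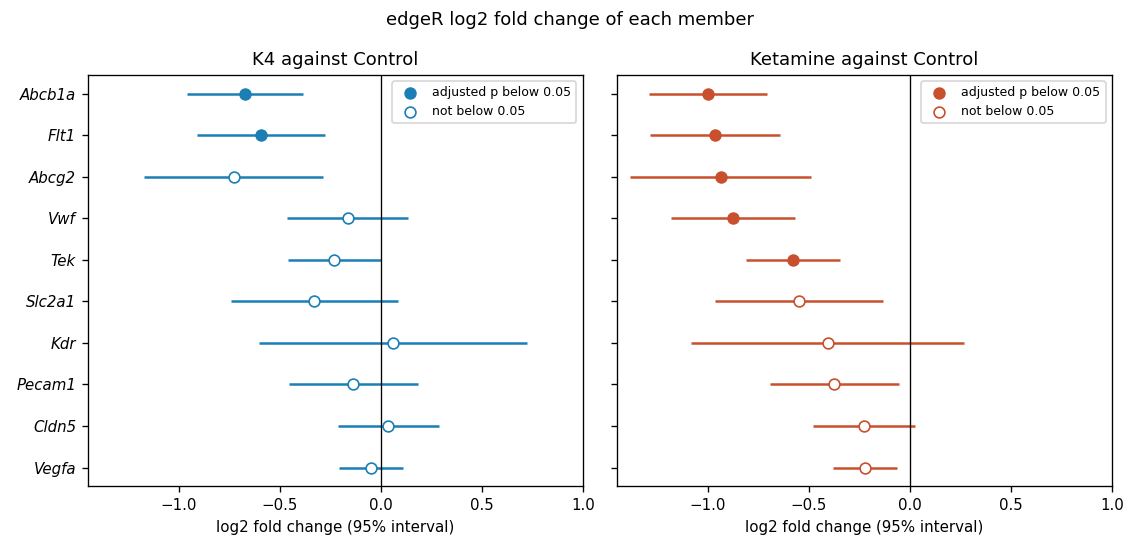
Log2 fold change of each gene against Control in K4 (left) and Ketamine (right), with the 95% interval from edgeR, filled where the adjusted p was below 0.05. Points for Abcb1a, Flt1, Abcg2, Vwf and Tek are filled in Ketamine, those for Abcb1a and Flt1 in K4.

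Against all genes tested, 2 of the 10 were called lower in K4, where 3.8% of genes were, and 3 of 10 lay below Control with no overlap, where 14.2% of genes did. In Ketamine 5 of 10 were called lower, where 9.75% of genes were, and 7 of 10 lay below with no overlap, where 18.1% did. The median log2 fold change of the 10 was −0.20 in K4 and −0.56 in Ketamine, against −0.0046 and −0.0023 over all genes tested. The K4 median was −0.07 without Control replicate 2 and −0.30 without Control replicate 3. These tissue libraries hold RNA of all cell types, so fewer endothelial cells and less of these RNAs per cell cannot be told apart. All 5 Ketamine calls remained when each of the 9 libraries was left out in turn. Libraries of K4 and Control with equal replicate numbers deviated together, but the labels do not say that they share anything. With the replicate number as a block over all 9 libraries, edgeR called 4 of the 10 in K4. These were Abcb1a (adjusted p = 0.00436), Flt1 (0.00345), Abcg2 (0.0137) and Slc2a1 (0.0244).

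The values also depended on scaling and transcript length. On the deposited TPM, where the median of all genes moves up by 0.16 in K4 and 0.12 in Ketamine on the log2 scale, 5 of the 10 had negative log2 fold changes in K4 against 8 of 10 on counts, and all 10 were negative in Ketamine on both. Abcb1a, Abcg2, Flt1, Slc2a1 and Tek were negative in both comparisons under every scaling tried. Lengths implied by the deposited counts and FPKM were 10.04 kb for Vwf, 7.45 kb for Flt1, 6.70 kb for Kdr, 6.50 kb for Abcb1a, 5.14 kb for Tek and 2.54 kb for Abcg2, down to 1.63 kb for Cldn5. With an offset for the length trend of each library, the 5 Ketamine calls held, at log2 fold changes of −0.83 for Abcb1a, −0.77 for Flt1, −0.62 for Vwf, −0.46 for Tek and −0.96 for Abcg2. With the same offset in K4, Abcb1a was called at −0.57 (edgeR adjusted p = 0.0480) and Flt1 was not, at −0.47 (adjusted p = 0.116).

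K4 and Ketamine were also compared directly, by 10 gene tests within the fit of 18047 genes. EdgeR called no gene there (0.0% of genes), with 1648 genes at an unadjusted p below 0.05 and 70 called by DESeq2. All 10 genes had higher levels in K4, with log2 differences of 0.18 to 0.71 and a median of 0.30 against 0.0018 over all genes, and 6 of 10 had an unadjusted p below 0.05. Some other lists lay the same way: 20 of 22 endothelial identity genes were higher in K4 (median 0.17), and so were 5 of 6 blood cell genes (median 0.75), with none called. Not all lists did: 8 of 10 meningeal genes were lower in K4 (median −0.15). Hypoxia genes were split 7 to 7 and choroid plexus genes 2 to 2. For 5 of 10, Abcb1a, Flt1, Vegfa, Vwf and Tek, every K4 library lay above every Ketamine library, which 9.49% of genes did. Vwf differed most, by 0.71 (95% interval 0.41 to 1.02, edgeR adjusted p = 0.205). DESeq2 called it (adjusted p = 0.000308), and edgeR did so without K4 replicate 2 (adjusted p = 0.0248 at a difference of 0.87). The adjusted p of the other 9 genes was 0.379 to 0.802, and the interval of Abcb1a, 0.03 to 0.62, leaves the size of any difference loosely bounded. A p above the threshold does not show that the 2 treatments left equal levels, and the routes differed.

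The log2 CPM of each gene was set against the mean of the 22 endothelial identity genes in the same library. It shows whether a gene moved by more than that mean, not by more than each gene of the list. That mean was lower by 0.42 in Ketamine, with no overlap, and by 0.22 in K4, with overlap. Relative to it, Abcb1a was lower by 0.56 in Ketamine and 0.43 in K4, Flt1 by 0.53 and 0.35, and Abcg2 by 0.46 and 0.45, all with no overlap with Control. Relative to the same genes, Vwf was lower by 0.44 and Tek by 0.14 in Ketamine, both with no overlap, and both overlapped Control in K4. Vegfa was higher relative to that mean in Ketamine (0.21) and K4 (0.18), and Cldn5 was so in K4 (0.27), with no overlap. The log2 fold changes of Vegfa itself were −0.22 and −0.05, so it rose only relative to the falling mean. Slc2a1, Kdr and Pecam1 overlapped Control in both. No offset for the length trend was used here, although that trend differed by group and implied lengths ran from 10.04 kb (Vwf) to 1.63 kb (Cldn5). Single genes of the list also fell far: its log2 fold changes ran from −1.10 (Ptprb) to 0.0063 in Ketamine and −0.71 (Ptprb) to 0.23 in K4. The Ketamine range includes all 10 genes, and the K4 range all but Abcg2 (−0.73). The differences from the mean are descriptions, since 3 libraries against 3 cannot go below an exact permutation p of 0.10.

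**Figure D3:**
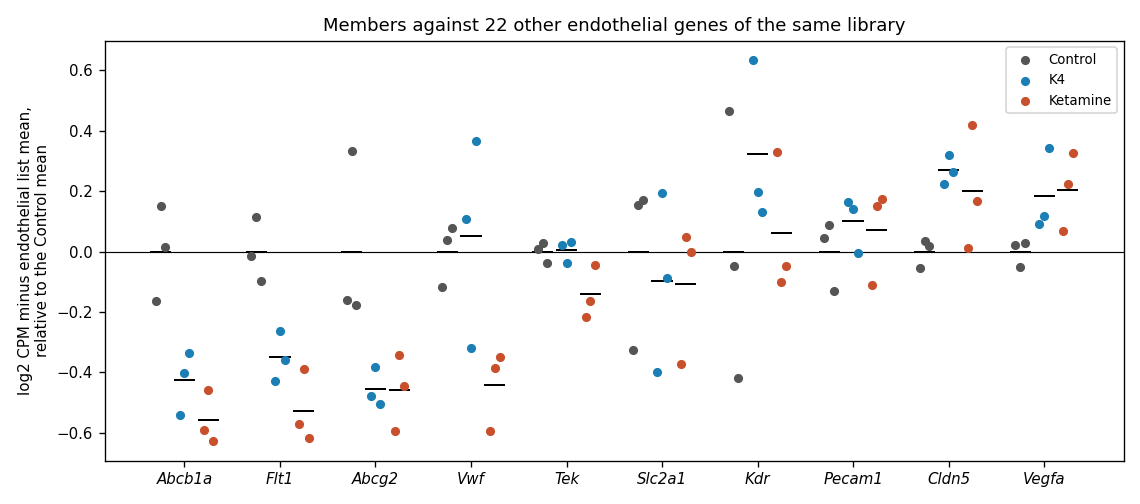
Log2 CPM of each gene minus the mean of 22 endothelial identity genes in the same library, shown relative to the Control mean, for the 9 libraries by group, with group means as bars. Abcb1a, Flt1 and Abcg2 lie below every Control library in both treated groups, and Vegfa lies above them.

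The endothelial identity genes include transcription factors, surface proteins and adhesion proteins. Of 22 tested, 1 was called lower in K4 and 5 in Ketamine, with none higher and medians of −0.20 and −0.43. Of all genes tested, 3.8% were called lower in K4 and 9.75% in Ketamine. The K4 count of 1 lay near the share over all genes. Ptprb, the endothelial phosphatase that acts on Tie2 and VE-cadherin, fell from 88.6 CPM ± 17.0 in Control to 53.9 CPM ± 7.89 in K4 and 41.3 CPM ± 0.652 in Ketamine (SD, n = 3), with log2 fold changes of −0.71 (edgeR adjusted p = 0.0145) and −1.10 (adjusted p = 0.000745). In Ketamine the transcription factor Ets1 (−0.68), the sialomucin Podxl (−0.54) and the matrix protein gene Mmrn2 (−0.51) also fell. The Ketamine count was 1 without Ketamine replicate 2, 3 without Ketamine replicate 3, 8 without Control replicate 3 and 2 with the length offset.

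Among 12 junction genes, 2 were called lower in K4, and 4 lower and 1 higher in Ketamine. Over all genes, 3.8% were called lower in K4 and 9.75% in Ketamine. Tjp1, which encodes the scaffold ZO-1, fell by 0.47 in K4 (edgeR adjusted p = 0.00963) and 0.57 in Ketamine (adjusted p = 0.00107) on the log2 scale. Jam2, a junctional adhesion molecule, fell by 0.46 and 0.50. The tight junction protein gene Ocln fell by 0.67 in Ketamine (adjusted p = 0.00870), and Jup, which encodes plakoglobin, rose by 0.23 there (adjusted p = 0.0194). Tjp1 and Jup are also expressed outside endothelium. The Ketamine count of 5 was 3 without Control replicate 1 or Ketamine replicate 3 and 2 without Ketamine replicate 2.

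Of 20 other barrier transporter genes, 2 were called lower in K4 and 10 in Ketamine, with none higher. The shares called lower over all genes were 3.8% and 9.75%. Slco1a4, an organic anion transporter, appears in the deposited counts under the symbol Slco1a2 and was matched by gene ID. It had log2 fold changes of −0.75 in Ketamine (edgeR adjusted p = 0.00292) and −0.44 in K4 (adjusted p = 0.0585). Slc7a1, a cationic amino acid transporter, fell by 0.66 in Ketamine and 0.41 in K4, and Lrp8, a lipoprotein receptor also found in neurons, by 0.32 and 0.24. Slc16a1, the lactate transporter MCT1, fell by 0.34 in Ketamine. With the length offset 3 of the 20 were called in Ketamine and 0 in K4. Leaving out Ketamine replicate 3 gave 4, Ketamine replicate 2 gave 5 and Control replicate 1 gave 6.

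In VEGF and angiopoietin signalling beyond the 10 genes, 0 of 17 were called in K4 and 4 in Ketamine, all lower. Those were Notch1 (log2 fold change −0.58, edgeR adjusted p = 0.00236), the receptor of Dll4 on endothelium, and Calcrl (−0.71, adjusted p = 0.00747), the adrenomedullin receptor. The others were Nrp1 (−0.30, adjusted p = 0.00832), a VEGF co-receptor, and Angptl4 (−0.54, adjusted p = 0.0409), a secreted lipase inhibitor. DESeq2 called 3 in K4 and the block called 2. For this list and the next, the shares called lower over all genes were 3.8% in K4 and 9.75% in Ketamine. Among 15 genes of Wnt and norrin signalling, which maintain the barrier, 0 were called in K4 and 3 in Ketamine: the receptor Fzd4 (−0.72), its co-receptor Lrp6 (−0.46) and the transcription factor Lef1 (−0.58). That Ketamine count was 1 without Ketamine replicate 2 and 6 without Control replicate 3. It was also 1 with the length offset.

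The hypoxia list was read beside Vegfa and Slc2a1, both known hypoxia targets. Of its 14 genes tested, 2 were called lower in K4, Pdk1 (log2 fold change −0.36) and Hif1a (−0.28). In Ketamine 4 were lower and 2 higher. Over all genes tested, 3.8% were called lower in K4 and 9.75% in Ketamine. The summed level of the list was 1052 to 1460 TPM in Control, 1475 to 1507 TPM in K4 and 1417 to 1552 TPM in Ketamine, so every K4 library lay above every Control library. Ldha alone went from 390 TPM ± 103 in Control to 532 TPM ± 4.16 in K4, and on TPM the median of all genes moves up by 0.16. On counts the list's median log2 fold change was −0.18 in K4, with 8 of 14 negative, and −0.21 in Ketamine. In K4, 6 of the 14 genes had positive log2 fold changes, among them Ldha (0.29, edgeR adjusted p = 0.0783), which did not overlap Control. Epas1, which encodes the endothelial and astrocytic factor HIF-2α, fell by 0.90 (edgeR adjusted p = 0.00569), and Ldha, the lactate dehydrogenase gene, rose by 0.37 in Ketamine (adjusted p = 0.0161). The Ketamine count of 6 was 1 with the length offset or without Ketamine replicate 2, and 2 without Control replicate 1 or Ketamine replicate 3. In a leukocyte adhesion list, 7 of 8 genes were tested, 0 were called in K4 and 1 in Ketamine, the caveolar gene Cav1 (−0.53, adjusted p = 0.0279). That count was 0 without Control replicate 1 or any 1 Ketamine library and 3 without Control replicate 3. In K4, leaving out 1 library gave 1 to 3 calls for endothelial identity, 0 to 4 for junctions, 0 to 5 for transporters, 0 to 3 for VEGF and angiopoietin signalling, 0 to 3 for Wnt and norrin signalling and 0 to 4 for hypoxia.

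**Figure D4:**
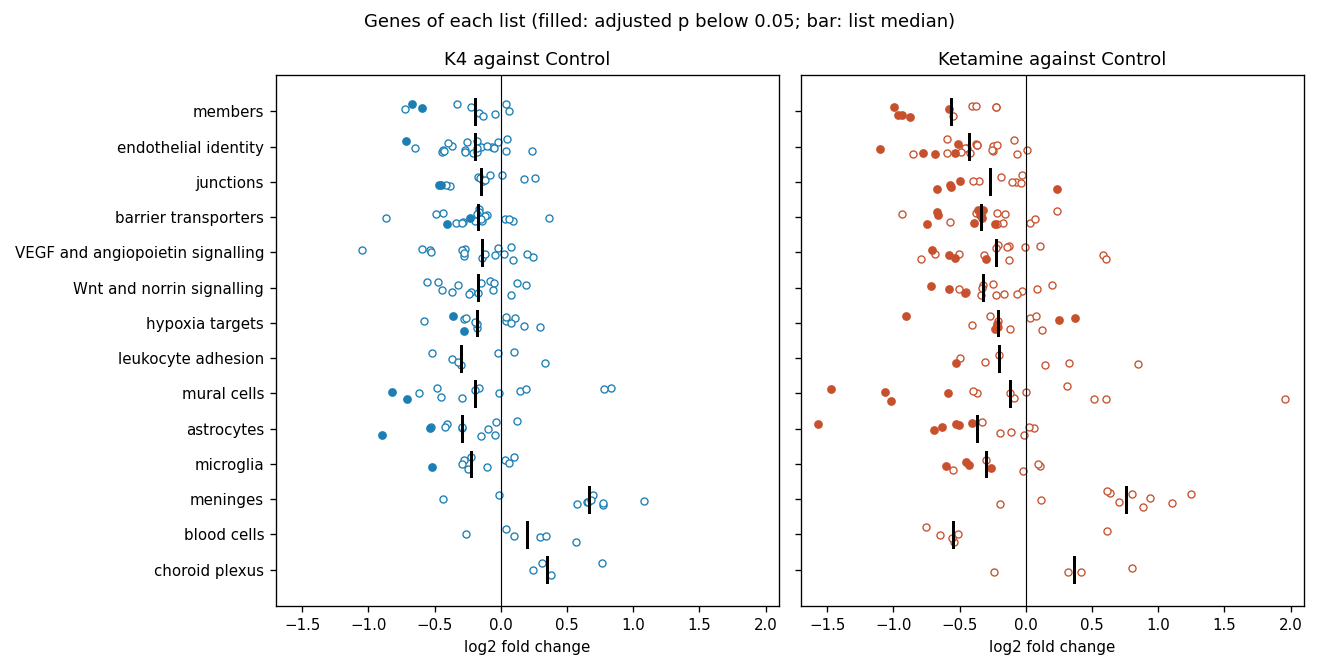
Log2 fold change of every tested gene of each list in K4 (left) and Ketamine (right) against Control, filled where edgeR's adjusted p was below 0.05, with the list median as a bar and the 10 genes in the top row. Calls lie mostly left of 0 in the vessel, astrocyte and microglia lists, and the meningeal medians lie right of 0 with no call.

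Markers of the cells beside the endothelium moved too. Of 13 mural cell genes, 2 were called lower in K4 and 4 in Ketamine, against 3.8% and 9.75% of all genes. Those shares also apply to the astrocyte and microglia counts below. The pericyte marker Rgs5 fell by 0.83 in K4 (edgeR adjusted p = 0.0196) and 1.47 in Ketamine (adjusted p = 0.000597), and Notch3 by 0.71 and 1.07. The list went both ways: 8 of 13 genes were negative in Ketamine and 9 of 13 in K4, with medians of −0.12 and −0.20. The smooth muscle gene Cnn1 was at 1.96 in Ketamine (adjusted p = 0.235) and Higd1b at 0.83 in K4 (adjusted p = 0.0796), neither called and both chosen after their values were seen. Summed mural levels were 202 to 234 TPM in Control, 169 to 223 TPM in K4 and 142 to 220 TPM in Ketamine. Of 12 astrocyte genes, 2 fell in K4 and 6 in Ketamine, among them the glutamate transporter gene Slc1a2 (−0.89 and −1.57) and the endfoot water channel gene Aqp4 (−0.53 and −0.69). Summed astrocyte levels were 4671 to 5737 TPM in Control, 4473 to 4841 TPM in K4 and 4279 to 4418 TPM in Ketamine. Of 9 microglia genes tested among 10, 1 fell in K4 and 4 in Ketamine, among them P2ry12 (−0.52 and −0.60), with summed levels of 425 to 468, 452 to 468 and 414 to 442 TPM. Siglech was at 0 in every library. The astrocyte count in Ketamine was 2 without Ketamine replicate 2 or 3, and also 2 with the length offset. The microglia count was 2 without Ketamine replicate 1 or 2. In K4, leaving out 1 library gave 0 to 3 calls for mural cells, 0 to 6 for astrocytes and 0 to 3 for microglia.

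Meningeal, blood and choroid plexus genes gave no call in either comparison. The 10 meningeal genes had median log2 fold changes of 0.67 in K4 and 0.75 in Ketamine, and their summed level was 750.4 to 1691 TPM in Control, 861 to 3424 TPM in K4 and 2036 to 3570 TPM in Ketamine, so Ketamine stood clear of Control. Without K4 replicate 2, 4 of them were called in Ketamine. Blood cell genes, 6 of 10 tested, summed to 226 to 351 TPM in Control, 282 to 524 TPM in K4 and 176 to 231 TPM in Ketamine. The B cell gene Cd79b was at 0 throughout. Choroid plexus genes, 4 of 8 tested, summed to 2.48 to 6.79 TPM across all libraries, with Folr1, Otx2 and Clic6 at 0. The part of these other cell types in the values of the 10 genes was not tested.

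Across the 9 libraries, the genes whose profiles were most like the mean profile of the 9 genes other than Vegfa were Aass (Pearson r = 0.988), Mafg (0.984), Cyyr1 (0.983), Notch1 (0.976) and Mtus1 (0.975), among 15379 genes compared. The 9 libraries differ in group, depth and length trend, and those features are shared by all such profiles. Tek (0.977) and Flt1 (0.963) lay closest to that mean among the genes themselves, and Kdr (0.610) farthest, although each of the 9 enters the mean. Vegfa, which does not enter it, had r = 0.894. The genes most like Vegfa were LOC691807 (0.967), Sec23b (0.961) and Mfsd1 (0.947). Cyyr1 had log2 fold changes of −0.44 in K4 (edgeR adjusted p = 0.126) and −0.88 in Ketamine (adjusted p = 0.00503).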

How the data were processed

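A table of raw counts by gene, deposited by the authors, covers the 9 libraries. Per the file headers, the authors also gave FPKM and TPM values for each. The labels name a stranded poly(A) library kit. The submitters' processing notes name bcl2fastq 2.20.0, Trimmomatic, HISAT2 2.1.0, StringTie 2.1.3b and build rn6, without roles. How the counts were made, and with which strand setting, is not given in the sources used here, so overlapping genes and near-identical copies are uncertain. Gene IDs were matched to a RefSeq table of GRCr8 for names, with no rn6 coordinates given.

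The count analysis used edgeR 4.0.16 in R 4.3.3: filterByExpr by group (minimum count 10, minimum total 15), TMM, and a robust quasi-likelihood fit of all 9 libraries without a block, with Benjamini-Hochberg adjustment over 18047 genes. Library totals were 27122207 to 42731004 counts, and the biological coefficient of variation between libraries of a group was 10.2%. CPM uses TMM-scaled library sizes and a prior count of 2 on the log2 scale. DESeq2 1.42.0 and limma 3.58.1 served for alternatives, and the tests were tried on simulated data first. Libraries were grouped by title. Deviations from group means over 10830 genes correlated between equal replicate numbers of K4 and Control (r = 0.222, 0.227 and 0.160). K4 replicate 3 and Control replicate 1, of unequal number, gave 0.211. The labels name no pairing and the link was read from these same data, so the block is an alternative only.

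The genes and the 13 other lists (182 entries with the 10 genes, all matched, 3 of them by gene ID) were chosen with earlier results of these data known, and the list counts support nothing independently. Named are all 10 genes, up to 4 called genes per list by smallest p, or the 1 with the smallest p, and the 5 and 3 genes most correlated with the mean profile and with Vegfa. Single list genes without a call (Ptprc, Slc6a13 and Kcne2) are given with the closing observations.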

Additional observations from a re-analysis of the deposited data

How the results depend on the processing

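No call of the 10 genes reversed under the 11 other settings or the 9 fits that each left out 1 library. Directions of genes not called were less stable in K4 against Control. There, Kdr and Cldn5 changed sign in 2 of these fits, and Vegfa, Vwf and Pecam1 in 4. In K4 against Control, 2 of the 10 genes were called, against 1 with no filter on low counts, 1 with the length offset, 1 with only the 2 groups compared and 0 on log2(TPM + 1) with no filter. Leaving out 1 library gave 0 to 4. On log2(TPM + 1) the count stayed at 2, but with Abcg2 (limma adjusted p = 0.0421) in place of Flt1 (0.0564). Of the 11 other settings, 10 called Abcb1a in K4, 5 called Flt1 and 4 called Abcg2. Over all genes the same comparison gave 1095 calls, and 1722 with DESeq2, 432 with the length offset, 452 with only the 2 groups, 1 on unfiltered log2(TPM + 1) and 174 to 1548 with 1 library left out. In Ketamine against Control the 5 calls became 3 on unfiltered log2(TPM + 1) and 5 to 7 with 1 library left out. The 3013 calls over all genes became 1398 with the length offset, 1840 on log2(TPM + 1), 1837 on log2(TPM + 0.1), 537 with no filter on TPM and 1177 to 3191 with 1 library left out. In K4 against Ketamine the 0 calls among the 10 became 1 with DESeq2 and 0 to 1 with 1 library left out. Over all genes they became 6 with no filter, 70 with DESeq2, 27 with only the 2 groups, 2 on log2(TPM + 1), 2 on log2(TPM + 0.1), 1 on unfiltered TPM and 0 to 27 with 1 library left out. The cause was not tested, beyond the smaller number of libraries in some fits.

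With the replicate block, 4 of the 10 genes were called in K4 against Control, 7 in Ketamine against Control, and 1 gene of all in K4 against Ketamine. Equal numbers of Ketamine and Control gave r of −0.0954 to 0.0232, so no joint deviation was seen between them. Whether they share a day, litter or batch is not labelled and was not tested. Equal numbers of K4 and Ketamine gave 0.262, 0.145 and 0.0386, the last under the 0.1 that was asked of every pair. Counts of the other lists under these settings were added after seeing the data.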

Other observations

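In the lists without a call, the gene with the smallest p was the leukocyte gene Ptprc for blood, at 7.12 CPM ± 1.16 in Control, 5.96 CPM ± 1.76 in K4 and 4.83 CPM ± 0.537 in Ketamine (SD, n = 3), with a log2 fold change of −0.56 in Ketamine (edgeR adjusted p = 0.0692). For meninges it was the GABA transporter gene Slc6a13, at 5.26 CPM ± 0.539, 8.45 CPM ± 2.72 and 8.03 CPM ± 2.30, with log2 fold changes of 0.68 in K4 (edgeR adjusted p = 0.130) and 0.61 in Ketamine (adjusted p = 0.121). For choroid plexus it was the potassium channel subunit gene Kcne2, at 1.99 CPM ± 0.404, 2.58 CPM ± 0.114 and 2.47 CPM ± 0.553, with adjusted p = 0.322 in K4 and 0.361 in Ketamine.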
